A study of Mus musculus with 5 samples.

Results

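The genes described here encode the proteins of the cytosolic ribosome. They were chosen by symbol alone, as the genes named Rpl or Rps followed by a number, the 3 stalk proteins Rplp0, Rplp1 and Rplp2, and Rpsa, which gave 83 members among 32285 measured genes. Of these, 51 belong to the large subunit and 32 to the small subunit. Single-cell RNA sequencing was done on cells sorted from flank tumours as live (propidium iodide-negative) and positive for CD45, the surface protein of blood-derived cells. The tumours grew from a line of mouse lung cancer, Lewis lung carcinoma, whose cells carried either a guide RNA that targets Jag2, which encodes a ligand of Notch receptors (JAG2KO, 2 libraries), or a scrambled guide (Scramble, 3 libraries). The labels give no mouse strain, age, sex or time of collection, do not say whether the edited line was 1 clone, and do not tie libraries to animals, so p-values measure the spread between these libraries. According to the design the injected cells carried the guide, and the host cells that make up most of each library carried no edit.

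A ribosome holds 1 copy of nearly every one of these proteins, so their mRNAs are made in large and roughly matched amounts in any cell that grows or divides. Many of these mRNAs begin with a run of pyrimidines, the terminal oligopyrimidine (TOP) motif, through which the mTOR kinase and the RNA-binding protein Larp1 set how actively they are translated. Some members have paralogs that differ in where they are expressed, among them Rpl3l, which is best known from skeletal and heart muscle, and Rps27l, a target of p53.

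The 5 libraries held 84788907 to 111680641 unique molecular identifiers (UMIs, counts of captured mRNA molecules), and 8221 to 19338 cells each were kept. JAG2KO 2 stood apart, with a median of 2422 UMIs per kept cell, against 8965 in JAG2KO 1 and 8064.5 to 8187.5 in the Scramble libraries. Each pair of libraries shared 26 to 74 cell barcodes. Cells were sorted into types by UMIs of marker genes, none of them a member. T and NK cells carried 3.4 to 9.7 UMIs of macrophage markers per 10000 UMIs, against 127.0 to 146.9 in monocytes and macrophages. The gates asked for fewer than 30 in T and NK cells and at least 60 in macrophages, so this gap follows largely from the gates. Cells with UMIs of Rhox5, a gene active in many mouse tumour lines, are called tumour-like. They numbered 121 to 149 in JAG2KO and 58 to 68 in Scramble libraries, although the CD45 sort should remove tumour cells, and the fibroblast markers (collagens among them) summed to 4105 counts scaled to 1e+06 UMIs (CPM) there. Jag2 itself had at most 2 UMIs in the tumour-like cells of any library (2 and 0 in JAG2KO, against 0, 2 and 1 in Scramble), so the edit could not be checked, and a 3′ tag need not be lost with an edit.

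In the kept cells the members took 12.5% and 13.6% of UMIs in the JAG2KO libraries, against 12.8%, 12.7% and 12.5% in the Scramble libraries. The UMIs were spread over many members: 54 of them each gave over 1% of the members' UMIs, and the 10 most abundant gave 23.0% together. Among the most abundant, Rpl13 gave 2.72% and Rplp1 2.64%. At the other end, Rpl10l, a testis paralog of Rpl10, had no UMI in any kept cell, while Rpl3l had 327 UMIs and Rpl39l 773 UMIs in all. Rpl10 had 55042 UMIs, fewer than the 305756 of Rpl10-ps3, a copy outside the symbol rule.

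The members lie on 19 chromosomes of GRCm38 (GENCODE vM21). For 60 of the 83, the annotation holds pseudogenes named after them, and 23 overlap a gene on the opposite strand. Reads from near-identical copies can be split or dropped in counting, and each level is uncertain to that extent. Members with a named pseudogene and members without one gave alike medians in T and NK cells against monocytes and macrophages, log2 0.70 and 0.64.

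The start sites below are shown to compare pyrimidine runs near the annotated start among members whose levels the results turn on. Such a run is not by itself a TOP motif, which begins at the first base of the mRNA. Each is 27 bases from RefSeq (GRCm38.p6), 13 before and 14 from the annotated start, with the longest pyrimidine run near the start in capitals. The first 3 are the members highest in T and NK cells relative to monocytes and macrophages, followed by Rps26, Rpl7l1, Rps27l and Rpl11.
Rps15a (chr7:118116134-118116160, minus strand): ctctttctgccaTCTTCCCTCgccggt
Rps27 (chr3:90213635-90213661, minus strand): ttccgctttcgCTCCTTTCCggcggtg
Rps24 (chr14:24490665-24490691, plus strand): cgcgctggggTCCTTCCTTgcgcgttg
Rps26 (chr10:128626493-128626519, minus strand): cgggcaagccgccggaTCCTCTTTCga
Rpl7l1 (chr17:46782643-46782669, minus strand): gaggctgcgCaagcgcagtagctgaag
Rps27l (chr9:66946073-66946099, plus strand): aCTCCTCCCCgccgcctctatcccgga
Rpl11 (chr4:136053380-136053406, minus strand): gacccataaggCCacggggccggaagt
Rps15a, Rps27 and Rps24 have 9 pyrimidines across the start, Rps26 has its 9 just after it, and the 9 of Rps27l end before it. Rpl7l1 and Rpl11 have no such run at this annotated start, which may not be the one used in these cells. Other members high in T and NK cells have shorter longest runs: Rpl27 and Rps7 5, Rpsa 3, Rps3 and Rps13 2. Of members with small positive changes there, Rpl35a has 13 and Rps9 9, against 3 for Rps15 and Rpl26 and 1 for Rpl10. Whether runs go with levels was not tested. A run of at least 8 pyrimidines (any of C and T, on the gene's strand) within 5 bases of the start was found for 24 of the 63 members with an entry (38.1%) and for 11.3% of 26962 other genes.

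The share of UMIs from the members differed between cell types by more than it differed between libraries of a type. Tumour-like cells had the highest mean share, 26.4% ± 1.10 (SD, n = 5 libraries), and NK cells followed with 24.2% ± 2.70 and T cells with 20.6% ± 2.60. Type 1 conventional dendritic cells (cDC1) averaged 17.9% ± 1.07, mast cells and basophils 16.9% ± 1.39 (n = 4), type 2 dendritic cells (cDC2) 16.6% ± 0.898 and mature dendritic cells 15.2% ± 0.723. Neutrophils averaged 4.90% ± 0.418, monocytes 13.8% ± 0.742 and macrophages 11.6% ± 0.754. The ranges of tumour-like and NK cells overlapped, as did those of NK and T cells, T cells and cDC1, the dendritic types with mast cells, and mature dendritic cells with monocytes. The ranges of neutrophils (4.48% to 5.48%) and macrophages (10.4% to 12.2%) overlapped with no other type. Monocytes had 13.85% and 15.03% in JAG2KO, against 13.76%, 13.22% and 13.21% in Scramble libraries, the only one of these types where the groups did not overlap. Macrophages had 10.4% and 12.2%, against 12.1%, 11.9% and 11.3%. The share is a score over the members, so no test was made of it.

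**Figure D1:**
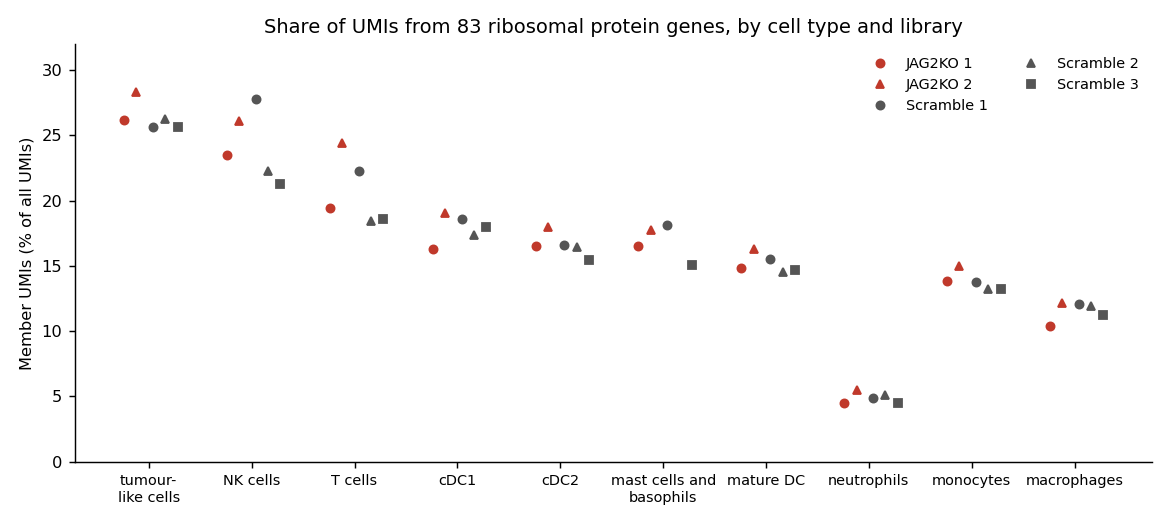
Share of all UMIs that came from the 83 members (vertical axis, percent), with 1 point per library in 10 cell types (horizontal axis); JAG2KO libraries are red and Scramble libraries grey. Tumour-like, NK and T cells lie highest, at 18.4% to 28.3%, and neutrophils lowest, at 4.48% to 5.48%.

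Within each library, T and NK cells together had 1.62 to 2.02 times the share of monocytes and macrophages, and neutrophils 0.392 to 0.448 times. Among T cells, regulatory T cells, marked by Foxp3, had 17.9% and 21.1% in JAG2KO libraries, against 18.4%, 17.2% and 15.1% in Scramble libraries. CD8 T cells had 19.97% and 24.9% and conventional CD4 T cells 17.8% and 22.6% in the JAG2KO libraries, and fewer than 20 such cells were present in each Scramble library. Depth moved with the share in several types. T cells deeper than the median of their library had a higher share than the rest in 5 of 5 libraries (20.03% to 25.3%, against 13.4% to 22.0%). So did the deeper NK cells (23.2% to 29.4%, against 13.8% to 22.4%). The same held in 5 of 5 libraries for monocytes, cDC2 and mature dendritic cells, and in 4 of 5 for cDC1 and tumour-like cells. It held in 3 of 5 for macrophages, 2 of 4 for mast cells and basophils and 1 of 5 for neutrophils. In macrophages the deeper cells had 10.5% to 12.1% and the rest 10.2% to 12.5%. Median depth in T and NK cells together was 3006.5 to 3382 UMIs, against 2926 to 10315 in monocytes and macrophages, and its part in the result was not tested.

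T and NK cells were compared with monocytes and macrophages within the 5 libraries, and these 2 classes are called lymphoid and myeloid here. Neutrophils and dendritic cells, also myeloid, were compared separately. Of 82 members tested, 73 were higher and 2 lower in T and NK cells (edgeR quasi-likelihood test, library as block, Benjamini-Hochberg adjusted p under 0.05). Among all 13086 genes tested, 26.5% were called higher and 34.1% lower. The members' median log2 fold change was 0.70, against -0.10 over all genes. The 50 large-subunit members (46 higher, 1 lower, median 0.70) and the 32 small-subunit members (27 higher, 1 lower, median 0.70) gave similar counts and medians, and no difference between the subunits was tested. By library, 72 members lay above 0 in all 5 libraries and 2 below. Scaling by library totals in place of trimmed means (TMM) moved the median of all genes to 0.07 and that of the members to 0.88.

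Rps15a, a small-subunit protein, had the largest change. Its level was 3753 and 5932 CPM in T and NK cells of JAG2KO libraries and 4967, 3846 and 3602 CPM in those of Scramble libraries. In monocytes and macrophages Rps15a had 1222 and 1777 CPM in JAG2KO and 1683, 1525 and 1422 CPM in Scramble libraries. The lymphoid and myeloid values of Rps15a did not overlap, and its log2 fold change was 1.33 ± 0.094 (SE, edgeR adjusted p = 1.3e-09). Rps27, a zinc-finger protein of the small subunit, followed with 2443 and 1974 CPM in JAG2KO and 2427, 1666 and 1669 CPM in Scramble T and NK cells. In monocytes and macrophages Rps27 had 845 and 671 CPM in JAG2KO and 880, 722 and 644 CPM in Scramble libraries, a log2 fold change of 1.24 ± 0.090 (edgeR adjusted p = 1.81e-09) with no overlap. Rps27rt, a near-identical retrotransposed copy outside the symbol rule, changed by 1.25 ± 0.089.

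Rps24, which human genetics ties to Diamond-Blackfan anaemia, averaged 6424 ± 1095 CPM in T and NK cells and 2669 ± 303 CPM in monocytes and macrophages (SD, n = 5 each; log2 1.07 ± 0.090, edgeR adjusted p = 1.13e-08). The other members of the 8 highest were Rpl27, Rps3, Rpsa, Rps13 and Rps7, with log2 fold changes of 0.98, 0.97, 0.97, 0.96 and 0.93. Rps3 has also been described as a DNA repair endonuclease, and Rpsa was first described as a laminin receptor. Rpsa averaged 4234 ± 536 CPM in T and NK cells and 1893 ± 169 CPM in monocytes and macrophages. The stalk proteins, which recruit elongation factors, changed less: Rplp0 by 0.74 ± 0.100, Rplp2 by 0.72 ± 0.084 and Rplp1 by 0.61 ± 0.081, all with edgeR adjusted p under 0.05. All 8 of the highest members remained called higher when the sums were scaled to the members' own UMIs, which asks whether a member takes a larger part of the ribosomal protein mRNA. They were picked for their large changes, so a positive sign there follows from the choice.

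**Figure D2:**
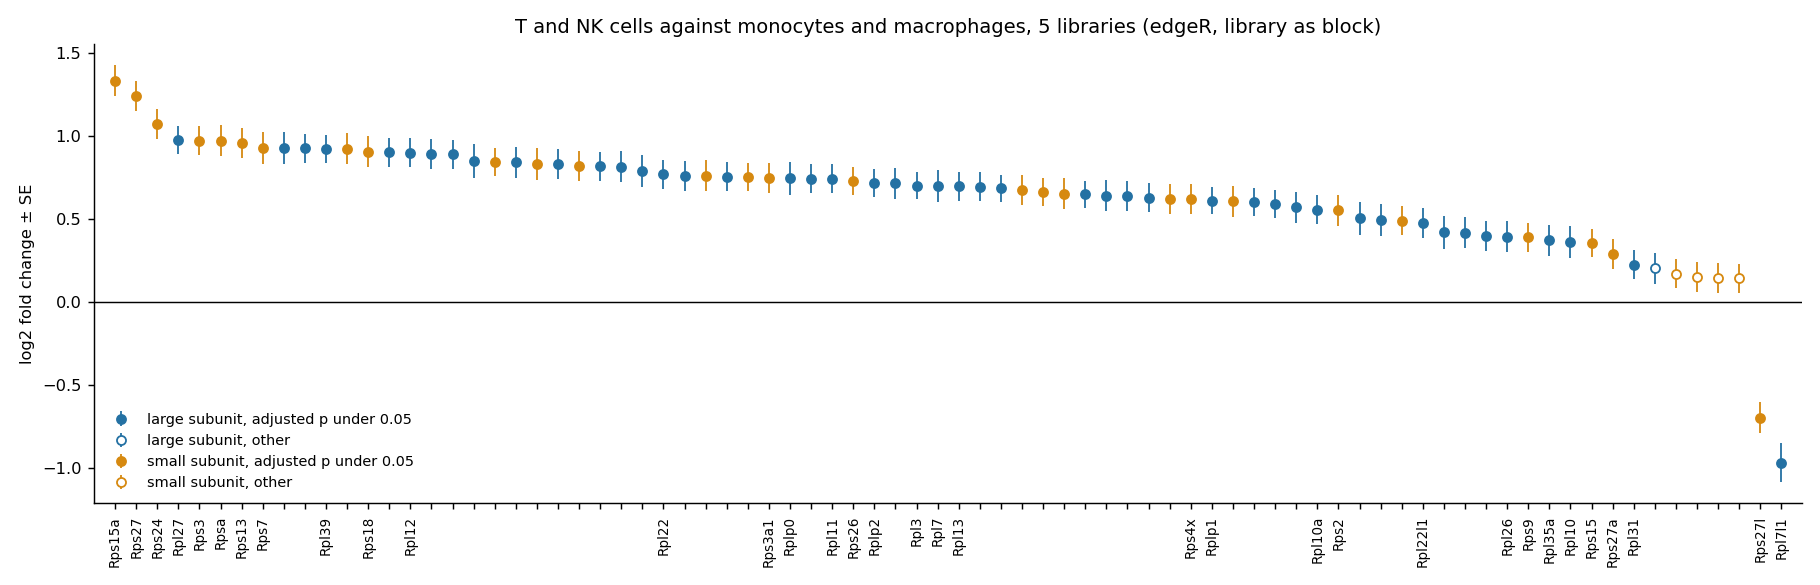
Log2 fold change (vertical axis) of 80 members in T and NK cells against monocytes and macrophages (5 libraries), ordered from high to low. Bars are 1 SE, derived from the edgeR test. Blue marks the large and orange the small subunit, and filled points are called. Members described in the text are labelled, and Rpl3l and Rpl39l are left out for their few UMIs. Most members lie between 0.2 and 1.1, Rps15a and Rps27 above 1.2, and Rps27l and Rpl7l1 alone lie below 0.

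Among members on the same side in all 5 libraries, the smallest positive changes belonged to Rps27a (0.29 ± 0.090), Rps15 (0.35 ± 0.083), Rpl10 (0.36 ± 0.095), Rpl35a (0.37 ± 0.092), Rps9 (0.39 ± 0.087) and Rpl26 (0.39 ± 0.093). Rps27a is made as a fusion with ubiquitin, and it averaged 3275 ± 550 CPM in T and NK cells and 2345 ± 256 CPM in monocytes and macrophages. Rps27a lost its call without Scramble 1 (edgeR adjusted p = 0.0549), without JAG2KO 1 (edgeR adjusted p = 0.0579), without the 5% deepest cells (0.0562) and with no library block (0.0811). Rpl10 lost its call with no library block (edgeR adjusted p = 0.164). These 6 turned negative when scaled to the members' own UMIs, from -0.31 for Rpl26 to -0.41 for Rps27a, and all 6 were called lower there. They were picked for their small changes, so a negative sign there follows from the choice. With that scaling 18 members were called higher and 22 lower, against 10.9% and 62.9% of all genes.

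The 2 members called lower were both paralogs of a core protein. Rpl7l1, whose human counterpart is found in precursors of the large subunit, had 45.0 and 40.9 CPM in T and NK cells of JAG2KO and 48.0, 44.2 and 26.4 CPM in those of Scramble libraries. In monocytes and macrophages Rpl7l1 had 80.4 and 63.0 CPM in JAG2KO and 80.7, 72.2 and 67.3 CPM in Scramble libraries. Its log2 fold change was -0.97 ± 0.119 (edgeR adjusted p = 1.69e-06), whereas that of Rpl7 was 0.70 ± 0.095. Rps27l had 272 and 314 CPM in T and NK cells of JAG2KO and 333, 238 and 225 CPM in those of Scramble libraries, against 355 and 461 CPM in JAG2KO and 421, 366 and 367 CPM in Scramble monocytes and macrophages. Its log2 fold change was -0.70 ± 0.095 (edgeR adjusted p = 5.51e-06), opposite in sign to that of its partner Rps27.

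The other paralogs gave less. Rpl22l1, a paralog of Rpl22, which T cell development needs, averaged 693 ± 150 CPM in T and NK cells and 435 ± 69.8 CPM in monocytes and macrophages (log2 0.48 ± 0.090), while Rpl22 changed by 0.77 ± 0.085. Rpl39 changed by 0.92 ± 0.085, and Rpl39l, known from male germ cells, was not called (edgeR adjusted p = 0.647), with 10 UMIs in T and NK cells that all came from JAG2KO 2. Rpl3l had 0 UMIs among 5685246 in T and NK cells, which allows up to 0.528 CPM, against 0.535 CPM in monocytes and macrophages, so a difference was not detectable at this depth. Rpl3 changed by 0.70 ± 0.080, and Rps4x, the X-linked form of Rps4, by 0.62 ± 0.092.

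Other groups of the translation machinery were counted in the same comparison, and no difference between the groups was tested. Among ribosomal proteins outside the symbol rule, 3 of 4 rose in T and NK cells, among them Fau by 0.53 ± 0.090 and Rack1 by 0.40 ± 0.089, while Rpl36al had 0.19 ± 0.088. Of 6 elongation factors 5 rose and none fell (median 0.32), led by Eef1b2 at 0.73 ± 0.091. Among 11 other genes with TOP mRNAs, which overlap the elongation list, 9 rose and 1 fell, the intermediate filament gene Vim. Of 29 initiation factors 7 rose and 12 fell (median -0.11), of 30 ribosome biogenesis genes 9 rose and 6 fell (median 0.04), and of 78 mitochondrial ribosomal proteins 10 rose and 29 fell (median -0.12). Among 11 regulators such as Mtor, Larp1 and Myc, 4 rose and 3 fell. Of 13 dissociation and stress genes, 2 rose and 8 fell in T and NK cells (median -1.05), and their part in the result was not tested.

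Neutrophils are short-lived, non-dividing cells, and their members were compared with those of monocytes and macrophages in the same libraries. Of 82 members tested, 3 were called higher and 67 lower, against 26% and 32.2% of all 12730 genes. The median was -0.56 for the members and -0.34 for all genes. Scaling by library totals, which shifts all genes of a library together, gave -1.38 and -1.16. Neutrophils had medians of 1147 to 2021 UMIs per cell, and 159 and 229 cells in JAG2KO, against 534, 553 and 599 in Scramble libraries.

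Rpl10a, which with TMM fell the most, averaged 281 ± 34.4 CPM in neutrophils (log2 -1.20 ± 0.105, edgeR adjusted p = 1.75e-23). Rps18 changed by -0.99 ± 0.104, Rpl12 by -0.96 ± 0.103 and Rpsa by -0.94 ± 0.100. Rps27 went the other way, with 1014 and 726 CPM in neutrophils of JAG2KO and 1066, 822 and 731 CPM in those of Scramble libraries. Its CPM overlapped with that in monocytes and macrophages (752 ± 105 CPM), and with TMM its log2 fold change was 1.03 ± 0.099 (edgeR adjusted p = 3.83e-20). Rps9, a core protein of the small subunit, averaged 1964 ± 330 CPM in neutrophils and 2007 ± 154 CPM in monocytes and macrophages. Rps9 was called higher with TMM (0.78 ± 0.097, edgeR adjusted p = 2.81e-13) and had -0.04 with library totals, where it was not called. Scaled to the members' own UMIs, where 15 members were called higher and 26 lower against 33.6% and 15.7% of all genes, Rps27 and Rps9 were higher in neutrophils by 1.46 and 1.21 on the log2 scale, so these mRNAs made up a larger part of the ribosomal protein mRNA there.

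Rpl3l was the other member called higher in neutrophils (log2 4.82 ± 0.428, edgeR adjusted p = 7.19e-23). It had 7.17 and 3.08 CPM in JAG2KO neutrophils, from 2 UMIs and 1 UMI, and 17.7, 7.41 and 7.58 CPM in Scramble neutrophils, from 17, 9 and 9 UMIs. In monocytes and macrophages its level was 0.376 to 0.667 CPM. Rpl3l therefore rested on 38 neutrophil UMIs, yet was above its level in monocytes and macrophages in 5 of 5 libraries. Of the ribosome biogenesis genes, none rose and 26 of 30 fell in neutrophils with TMM (median -0.90), and of the mitochondrial ribosomal proteins 3 rose and 56 of 78 fell. Among the ribosomal proteins outside the rule, Fau, fused to a ubiquitin-like protein, was called higher with TMM (1.33 ± 0.097) and Rack1 and Rpl36al lower. Of 6 elongation factors 1 rose with TMM, Eif5a (0.88 ± 0.106), and 5 fell. Of the 13 dissociation and stress genes 11 rose and 1 fell with TMM, and their part in the result was not tested.

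**Figure D3:**
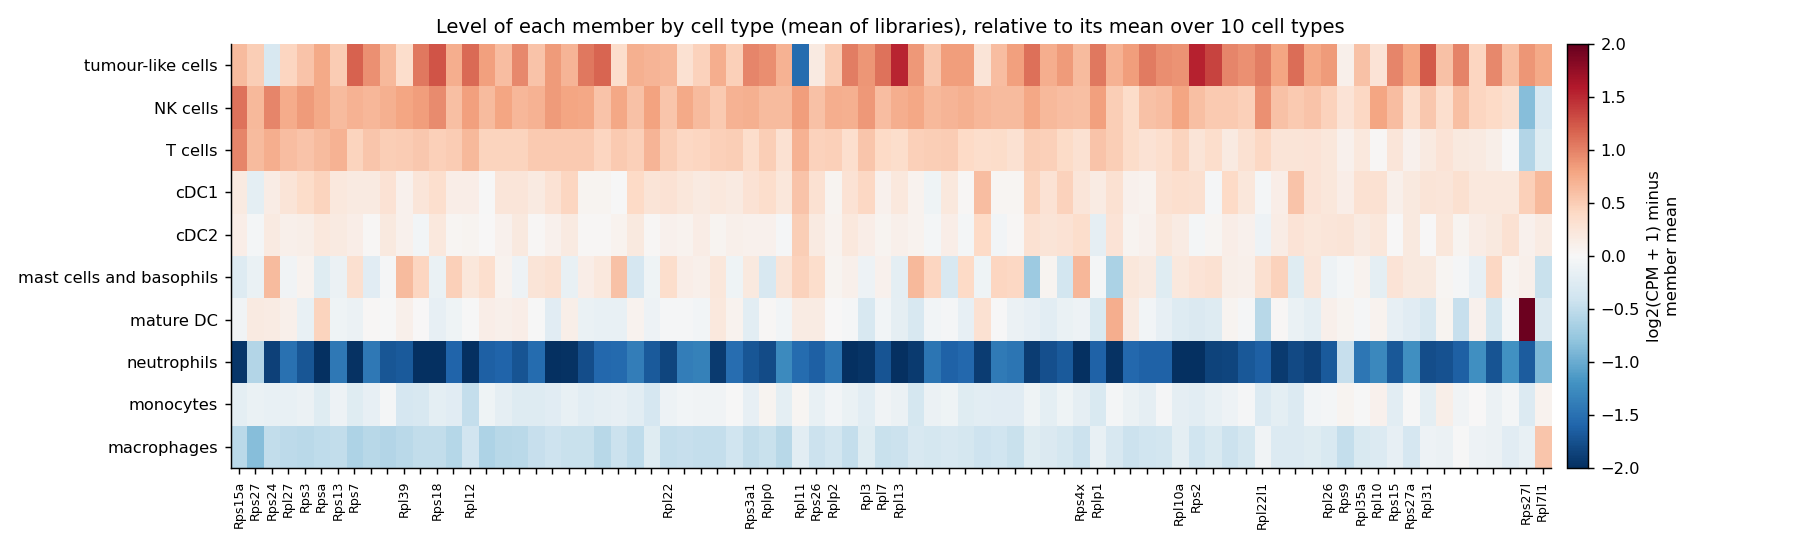
Mean level over libraries of 80 members (columns, in the order of the lymphoid against myeloid change, with those described in the text labelled) in 10 cell types (rows), as log2(CPM + 1) minus the member's mean over the types; red is above and blue below that mean. Neutrophils have the lowest mean of the types at 78 members, and macrophages have it at Rps27 and Rps9. Tumour-like cells are high except at Rpl11 and Rps24, and Rps27l stands out in mature dendritic cells.

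In dendritic cells, which present antigen to T cells, 79 of 82 members were higher than in monocytes and macrophages and none lower, against 24.9% and 29.5% of all 13111 genes (edgeR). The members' median was 0.64 and that of all genes -0.08. The 3 members not called were Rpl22l1 (0.03 ± 0.068), Rpl7l1 (-0.18 ± 0.077, edgeR adjusted p = 0.0601) and Rpl39l (-0.43 ± 0.542). Rpl7l1 passed the threshold with library totals, with the sums scaled to the members, without the filter on low counts, without the deepest cells and without JAG2KO 2.

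Rps27l had the largest change among well-counted members (log2 1.18 ± 0.096, edgeR adjusted p = 1.71e-07), and it was highest in the mature dendritic cells. There Rps27l had 1884 and 1863 CPM in JAG2KO and 2053, 1695 and 1089 CPM in Scramble libraries. In cDC1 it had 606 and 645 CPM in JAG2KO and 670, 631 and 515 CPM in Scramble libraries, and all mature values lay above all cDC1 values. Over 10 cell types Rps27l had the widest range of any member, from 137 CPM in neutrophils to 1717 ± 373 CPM in mature dendritic cells. Its partner Rps27 was highest in NK cells, at 2049 CPM on average. Rpsa was higher in dendritic cells by 0.97 ± 0.066 on the log2 scale. Rpl3l changed by 1.88 ± 0.550 (edgeR adjusted p = 0.0106) on 0 to 9 UMIs per library and lost its call without JAG2KO 1 (edgeR adjusted p = 0.0949). Of the other lists, 6 of 6 elongation factors and 4 of 4 ribosomal proteins outside the rule rose in dendritic cells, and 12 of 29 initiation factors rose and 4 fell, as did 8 and 4 of 30 biogenesis genes. Scaled to the members' own UMIs, 24 members were called higher and 19 lower in dendritic cells, against 10.6% and 68.1% of all genes.

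**Figure D4:**
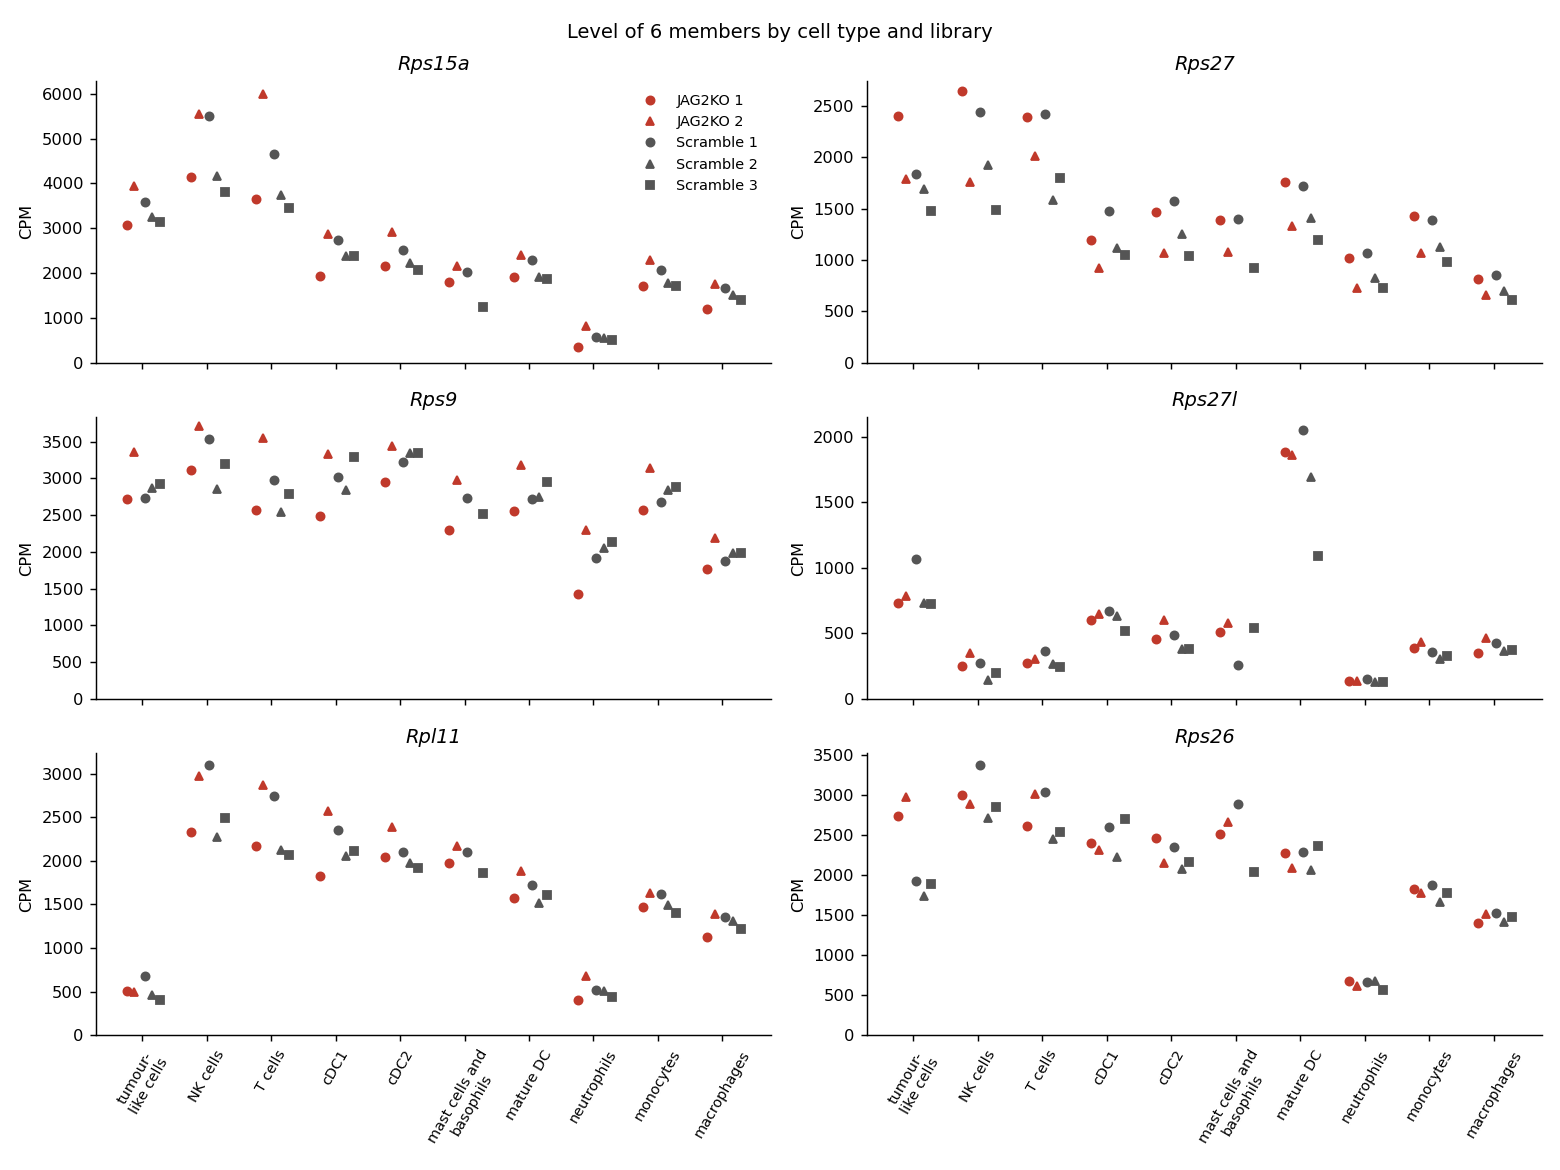
Level in CPM (vertical axes) of Rps15a, Rps27, Rps9, Rps27l, Rpl11 and Rps26 in 10 cell types, with 1 point per library; JAG2KO is red and Scramble grey. Rps27l peaks in mature dendritic cells (1089 to 2053 CPM). Rpl11 is low in tumour-like cells (405 to 676 CPM) and in neutrophils (508 CPM on average), and Rps26 differs between JAG2KO and Scramble tumour-like cells.

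In the tumour-like cells, a comparison added after seeing the data, 77 members were higher than in monocytes and macrophages and 3 lower, against 33.7% and 39.4% of all 13478 genes (edgeR). The members' median was 0.95, against -0.08 for all genes. Rpl13, Rps2, Rps7 and Rps18 led with log2 fold changes of 1.76, 1.73, 1.59 and 1.54. Scaled to the members' own UMIs, 20 were called higher and 28 lower, against 13.7% and 71.9% of all genes. Rpl13 reached 10990 and 12956 CPM in JAG2KO and 10856, 11449 and 10750 CPM in Scramble tumour-like cells, against 2525 to 3170 CPM in monocytes and macrophages. Of 30 ribosome biogenesis genes 26 rose and 1 fell (median 0.97), among them Ncl by 1.504 ± 0.116 and Npm1 by 1.73 ± 0.083, and Myc, a transcription factor that drives such genes, rose by 2.35 ± 0.179. Of 78 mitochondrial ribosomal proteins 47 rose and 10 fell, of 29 initiation factors 16 rose and 4 fell, and of 13 dissociation and stress genes 5 rose and 8 fell. Tumour-like cells had medians of 22081 to 43313 UMIs, the highest depth of any type, and its part in the result was not tested.

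Rpl11 went against the rest. This large-subunit protein is known to bind Mdm2 and so to link ribosome assembly to p53. It had 506 and 495 CPM in JAG2KO and 676, 461 and 405 CPM in Scramble tumour-like cells, against 1144 and 1397 CPM in JAG2KO and 1366, 1320 and 1236 CPM in Scramble monocytes and macrophages. The values of Rpl11 did not overlap, and its log2 fold change was -1.55 ± 0.108 (edgeR adjusted p = 7.46e-07). Neutrophils had the lowest mean of Rpl11 among the cell types, at 508 CPM, which lay within the tumour-like values of 405 to 676 CPM. Rps24, among the highest in lymphoid cells, had 2950 ± 274 CPM in tumour-like cells, against 2669 ± 303 CPM in monocytes and macrophages. The other members called lower were Rpl39l, with 2 UMIs in 16072508, and Rpl3l, with 0 UMIs, which makes Rpl3l at least 2.87-fold lower than its 0.535 CPM in monocytes and macrophages (3 counts over the summed libraries).

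The study asks what loss of Jag2 in tumour cells does to the immune cells around them, and each class was compared between JAG2KO and Scramble libraries. In monocytes and macrophages none of 82 members was called, against 0.933% of all 14477 genes (edgeR). At an unadjusted p under 0.05 there were 3 of 82 members, against 2422 of 14477 genes. DESeq2 called 3 of 82 members lower, a share close to the background of 3.43% of all genes. Rps15 and Rpl31 were among them and also among the 3 members with the smallest p in edgeR. Rps15 had 1177 and 1228 CPM in JAG2KO, against 1466, 1508 and 1423 CPM in Scramble monocytes and macrophages. Its values did not overlap, and its log2 fold change was -0.30 ± 0.101 (edgeR adjusted p = 0.2, DESeq2 adjusted p = 0.00846). Rpl31 had a log2 fold change of -0.29 ± 0.102. The members' median was -0.08, against 0.00 for all genes, and it rested on which JAG2KO library was used. Without JAG2KO 1 it was 0.05, with 55 of 82 members above 0. Without JAG2KO 2 it was -0.24, with 70 members below 0. No member was called in either fit, and in each the lone JAG2KO library is assumed to vary like the others.

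No member was called in the other immune classes either. In neutrophils 0 of 80 members were called (0.566% of all genes) and none by DESeq2, with a median of 0.13. None had an unadjusted p under 0.05, against 594 of 6363 genes. The neutrophil median was -0.09 without JAG2KO 2, -0.07 without the 5% deepest cells and 0.26 without JAG2KO 1. In dendritic cells 0 of 80 were called (1.03% of all genes) and none by DESeq2. At an unadjusted p under 0.05 there was 1 member, against 983 of 9065 genes. The median of 0.05 in dendritic cells turned to -0.08 without JAG2KO 2 and was 0.18 without JAG2KO 1. The member with an unadjusted p under 0.05 in the fit of all 5 libraries was Rps27l, with 943 and 1066 CPM in JAG2KO and 885, 682 and 594 CPM in Scramble dendritic cells (log2 0.52 ± 0.170, edgeR adjusted p = 0.201). The values of Rps27l did not overlap between the groups. In mature dendritic cells alone, where Rps27l is highest, they did. Mature cells were 165 of 430 and 106 of 231 dendritic cells in JAG2KO libraries. In Scramble libraries they were 49 of 199, 39 of 191 and 61 of 217. The part of this mix in the change of Rps27l was not tested.

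In T cells 0 of 80 members were called by edgeR (0.187% of all genes) or by DESeq2. None had an unadjusted p under 0.05 in edgeR, against 311 of 5878 genes. Even so, 77 had a positive log2 fold change and the median was 0.21. Without JAG2KO 2 the direction turned, with 31 members above 0, 49 below and a median of -0.04. Without JAG2KO 1 the median was 0.40. The members are not independent of each other, so this count of signs carries no test. The summed share in T cells was 19.4% and 24.4% in JAG2KO, against 22.3%, 18.4% and 18.6% in Scramble libraries, and these values overlapped. CD8 T cells were 142 of 432 and 182 of 448 T cells in JAG2KO libraries. In Scramble libraries they were 10 of 100, 7 of 86 and 7 of 65. Regulatory T cells were 94 and 63 of the T cells in JAG2KO, and 30, 39 and 22 in Scramble libraries. The part of this mix in the T cell changes was not tested. In NK cells 0 of 80 members and 0 of 3867 genes were called (0%), and no member was called by DESeq2. No member had an unadjusted p under 0.05, against 134 of 3867 genes. The members' median in NK cells was 0.09, and it was -0.08 without JAG2KO 2, -0.01 without Scramble 3 and 0.28 without Scramble 1. NK cells numbered 95 and 62 in JAG2KO, against 37, 27 and 34 in Scramble libraries. An interaction test asked whether the change between T and NK cells and monocytes and macrophages differs between JAG2KO and Scramble. It called none of 82 members (edgeR, 1.31% of all genes called), and DESeq2 called none. At an unadjusted p under 0.05 there were 3 members, against 1034 of 14234 genes. Of the interaction terms 81 were positive, with a median of 0.22, against 0.01 for all genes. Without Scramble 1 the median was 0.39, and 70 members had an unadjusted p under 0.05, against 1150 of 14040 genes. In that fit 3 members were called higher, against 0.221% of all genes. Without any other library the median was 0.14 to 0.26 and none was called.

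**Figure D5:**
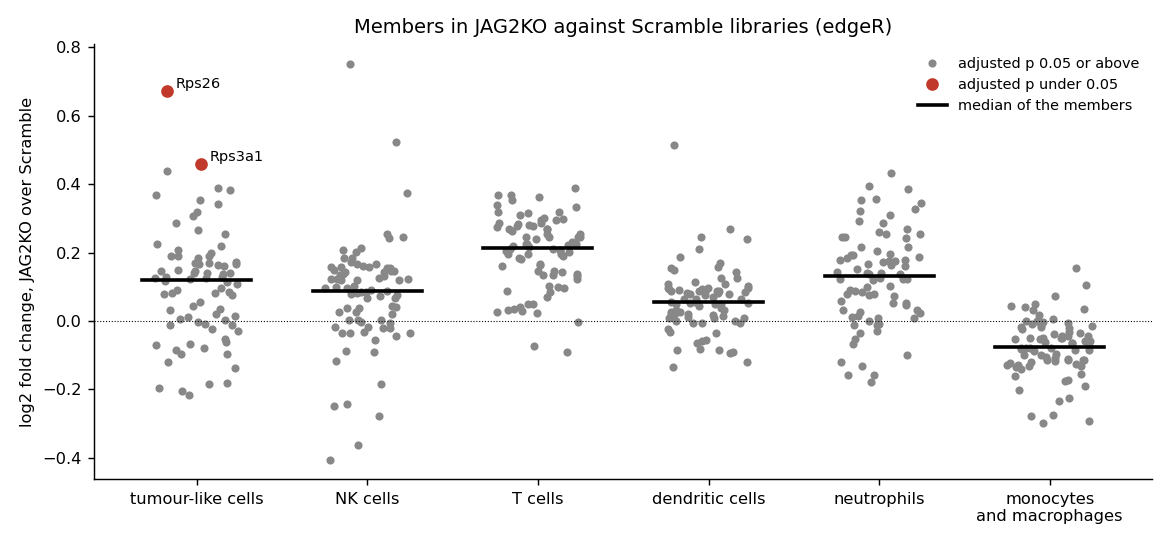
Log2 fold change of each member in JAG2KO over Scramble libraries (vertical axis) in 6 cell classes, with 1 point per member and a bar at the median; red points are called, and Rpl3l and Rpl39l are left out. Rps26 (0.67) and Rps3a1 (0.46) in tumour-like cells are called and the medians of the classes lie between -0.08 and 0.21, with those of T, NK and dendritic cells and neutrophils below 0 without JAG2KO 2.

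In tumour-like cells 2 of 80 members were called higher in JAG2KO (edgeR), against 3.61% of all 10291 genes, a share close to the background. At an unadjusted p under 0.05 there were 9 of 80 members, against 2409 of 10291 genes. Rps26, a small-subunit protein that contacts mRNA at the exit channel, had 2742 and 2971 CPM in JAG2KO, against 1930, 1742 and 1883 CPM in Scramble tumour-like cells. The groups did not overlap, and the log2 fold change was 0.67 ± 0.125 (edgeR adjusted p = 0.00736). Without Scramble 2 the adjusted p of Rps26 was 0.0531. In monocytes and macrophages Rps26 had 1425 and 1514 CPM in JAG2KO, against 1544, 1430 and 1497 CPM in Scramble libraries, and the groups overlapped. Whether the change of Rps26 differs between these classes was not tested.

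Rps3a1 had 4706 and 5190 CPM in JAG2KO, against 3649, 3726 and 3784 CPM in Scramble tumour-like cells, also without overlap (log2 0.46 ± 0.123, edgeR adjusted p = 0.0405). Its call was lost when any Scramble library or JAG2KO 2 was left out, with adjusted p of 0.0806, 0.175 and 0.137 without Scramble 1, 2 and 3 and 0.0810 without JAG2KO 2, and also with library totals (0.0513), scaled to the members' own UMIs (0.0768) and with the replicate number as a block (0.0758). The design puts the guides in the injected tumour cells, but no guide was measured in the tumour-like cells. A difference between the edited and control lines that arose in culture and an effect of the edit cannot be told apart.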

How the data were processed

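The authors deposited unnormalized UMI counts for each gene in each barcode, written by cellranger 6.0.0 per the file headers. Libraries were prepared with a 3′ droplet protocol per the labels' protocols, and the submitters' processing notes name Seurat, GRCm38 and mm10. Barcodes without cells had been removed by the authors, per the labels.

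A barcode was kept with 500 or more UMIs, 250 or more genes and no more than 10% of UMIs from mitochondrial genes. Cells were gated on UMIs of marker genes: macrophages by at least 4 of 8 markers and 60 marker UMIs per 10000 UMIs, T cells by 2 markers and 2 Cd3 UMIs, NK cells by 2 markers and no Cd3, neutrophils by 4 of 8 markers, tumour-like cells by 2 Rhox5 UMIs, and all but monocytes and macrophages by fewer than 30 macrophage-marker UMIs per 10000. Cells meeting gates of 2 classes were left out. No doublet caller was run.

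Counts were summed per library and class, with at least 20 cells, and tested with edgeR 4.0.16 (TMM, filterByExpr, quasi-likelihood test), with the library as block between cell types, and p-values were adjusted by Benjamini-Hochberg over all genes tested. CPM are summed counts over the class's summed UMIs, times 1e+06. The SE of a log2 fold change was derived from the edgeR test, as its absolute value over the square root of the F statistic. It is not a spread measured between libraries. The share is the members' UMIs over all UMIs. Fits were tested on simulated data. DESeq2 1.42.0 and the other alternatives are described after the report. Positions come from GENCODE vM21. Members and gene lists were chosen with earlier results of these data known. Named genes are the 8 highest and 8 lowest members on the same side in all 5 libraries between lymphoid and myeloid cells, paralog pairs, Rplp0, Rplp1, Rplp2 and Rpsa, the members of most and least UMIs and widest range, and the called members (or the 3 smallest p) between JAG2KO and Scramble. Those of the other cell-type comparisons were chosen after their values were seen. Some genes that these rules name are not reported here.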

Additional observations from a re-analysis of the deposited data

How the results depend on the processing

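Scaling to the members' own UMIs, which removes a change common to all members, left 40 members called in T and NK cells against monocytes and macrophages, 41 in neutrophils, 43 in dendritic cells and 48 in tumour-like cells. The other alternatives kept these counts within 1.5 times, and leaving out 1 library gave 73 to 77, 64 to 70, 76 to 79 and 79 to 80 members. With that scaling Rpl26 (-0.31), Rps9 (-0.31), Rpl35a (-0.33), Rpl10 (-0.34), Rps15 (-0.35), Rps27a (-0.41), Rpl22l1 (-0.23), Rpl7 (-0.00083), Rps4x (-0.080) and Rplp1 (-0.088) reversed in T and NK cells and Rpl22l1 (-0.61) in dendritic cells. Rpl22l1 in dendritic cells also reversed with library totals (-0.10), without the filter on low counts (-0.0080) and without JAG2KO 1 (-0.035, with 0.068 as the highest value when any 1 library was left out), as did Rps9 in neutrophils with library totals (-0.043). With 1 library left out, Rpl39l in T and NK cells ran from -9.43, a fitted value against a group at 0, to 0.36, Rpl38 between JAG2KO and Scramble dendritic cells from -0.14 to 0.54, and Rps18 and Rpl15 between JAG2KO and Scramble neutrophils from -0.13 to 0.81 and from -0.053 to 0.69, with the extremes of these 4 set by which JAG2KO library was left out. In T cells alone against macrophages alone, added after seeing the data, Rpl10, Rps15, Rps27a and Rpl22l1 lost their calls, and the cause was not tested.

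Between JAG2KO and Scramble, DESeq2 called 3 members in monocytes and macrophages, and no filter on low counts called 1 in dendritic cells (Rps27l) and 5 in tumour-like cells. In tumour-like cells 1 member was called with library totals and 1 scaled to the members, and 0 to 5 with 1 library left out. The interaction test gave 0 to 3 members with 1 library left out. The cause was not tested. The groups share replicate numbers 1 and 2, but nothing in the labels says that a number marks a shared animal or day. In monocytes and macrophages, deviations from group means correlated at -0.0322 and 0.163 for same-numbered libraries and from -0.163 to 0.137 for other pairs. With 2 JAG2KO libraries their deviations are exact opposites, so these correlations cannot decide on pairing. With the replicate number as a block, 1 member was called in tumour-like cells and 0 in each other class.

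Leaving the 20 most abundant other genes out of the total raised the mean share to 14.1% in macrophages, 16.2% in monocytes, 5.63% in neutrophils, 19.5% in dendritic cells, 27.2% in NK cells and 28.9% in tumour-like cells. In neutrophils the median over cells was 4.05%, and the share without the 5% deepest cells was 4.16%. With 1 library left out the means ran from 11.4% to 11.9% in macrophages, 13.5% to 13.97% in monocytes, 4.75% to 5.003% in neutrophils, 16.4% to 16.8% in dendritic cells, 19.7% to 21.2% in T cells, 23.3% to 24.9% in NK cells and 25.9% to 26.6% in tumour-like cells. Rpl3l and Rpl39l rest on 327 and 773 UMIs, and the NK cell sums of the Scramble libraries on 27 to 37 cells each.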
